A study of Mus musculus with 20 samples.

Results

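The hippocampal transcriptome of females that carried human APOE4 was compared with that of females that carried human APOE3. Both groups were targeted replacement mice, in which the human gene stands in the place of mouse Apoe, homozygous for their allele, on the C57BL/6 strain and 16 months old. The hippocampus was taken after perfusion and its polyadenylated RNA was sequenced, with 5 mice labelled F.APOE3 (hAPOE3) and 5 labelled F.APOE4 (hAPOE4). The genes described are all those with at least 10 counts in at least 5 of these 10 mice, which were 20747 of the 33119 rows of the gene table, and the rule took no account of genotype. Of these genes 18294 reached 10 counts in all 10 mice, 399 reached it in exactly 5, and another 449 reached it in exactly 4 and were left out. The labels name no litter, cage or day of dissection, so the p-values measure the spread between these mice. Each allele was carried by a line of its own, so that the allele and anything else fixed in its line cannot be told apart. In whole tissue, fewer cells of a type and less RNA per cell cannot be told apart either. Males of the same age and genotypes (M.APOE3 and M.APOE4, 5 each) shared no animal with the females and served as a second comparison.

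APOE is the main lipid carrier of the brain. Astrocytes, and microglia when activated, secrete it on lipoprotein particles that neurons and glia take up through receptors of the LDL receptor family. The E4 allele is the strongest common genetic risk factor for late onset Alzheimer's disease, and it has been linked to changes in lipid handling, glial reactivity and energy metabolism.

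The female libraries held 35778879 to 47295254 counts, and no pair of them agreed within sampling noise. Every female library carried Xist at 652 to 988 CPM (counts scaled to the size of each library) while 4 Y-linked genes reached at most 3.64 CPM (Kdm5d) in females, against 28.7 CPM or more of Kdm5d in males. Neuronal markers summed to 7109 to 8210.4 CPM and microglial markers to 421 to 512 CPM in all 10 libraries. Choroid plexus markers, a sign of how much of that tissue came along in the dissection, ranged from 97.8 to 3999.7 CPM in hAPOE3 and from 118 to 6784 CPM in hAPOE4. F.APOE3 replicate 1 stood apart, with red cell markers at 302 CPM against 9.16 to 31.9 CPM in the other 9 females. F.APOE3 replicates 4 and 5 also stood apart. Their ribosomal protein genes summed to 15156 and 15719 CPM, against 9978 to 10436 CPM in F.APOE3 replicates 1 to 3. The hAPOE4 females lay between them, at 11605 to 12682.5 CPM. Sums of the nuclear complex I (3418 and 3602, 2299 to 2428 and 2624 to 2889 CPM), complex III to V, proteasome and antioxidant lists were split in the same way. The transcripts counted were those of the mouse, and the residual signal at Apoe was 51.2, 46.0, 37.4, 71.6 and 60.1 CPM in hAPOE3 and 62.6, 71.4, 52.8, 60.9 and 68.1 CPM in hAPOE4, a log2 fold change of 0.24 ± 0.16 (SE) with an adjusted p of 0.68.

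Most of what differed was lower in hAPOE4. At an adjusted p below 0.05, 115 genes fell in hAPOE4 females (0.554% of those tested) and 26 rose (0.125%), 141 in all (0.68%). The fallers were mostly not protein coding genes. Only 38 of the 115 fallers (33%) were annotated as protein coding against 21 of the 26 risers, while 78.1% of all genes tested were. Processed pseudogenes made 31 of the fallers, 4.94% of the 627 tested, and lincRNAs made 13 and antisense RNAs 12 of them, 0.908% and 1.09% of those tested. More than a 2-fold change was reached by 60 of the fallers and 18 of the risers, and the median log2 fold change was -1.01 among the fallers and 1.31 among the risers. Across all 20747 genes the median was 0.003, and 1.84% of genes differed by more than 1 on the log2 scale. The excess of lower genes was also present at an unadjusted p below 0.05, with 1360 lower (6.56%) and 744 higher (3.59%). In 107 of the fallers and 24 of the risers the values of the 2 groups did not overlap, which was so for 2.36% of all genes in the lower direction and 1.01% in the higher.

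The genes that differed in females fell into 3 kinds, described in turn. Of the 141 genes, 43 were also called in the same direction in males (15 higher and 28 lower), which is 30.5% of the female calls and 38.7% of the 111 male calls (0.535% of genes tested). A further 33, all lower, held 1 shared repeat sequence. Of the rest, 63 had neither the repeat nor a male call and 2 were called in males in the opposite direction, and these included a group of genes that fell in females but not in males.

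**Figure D1:**
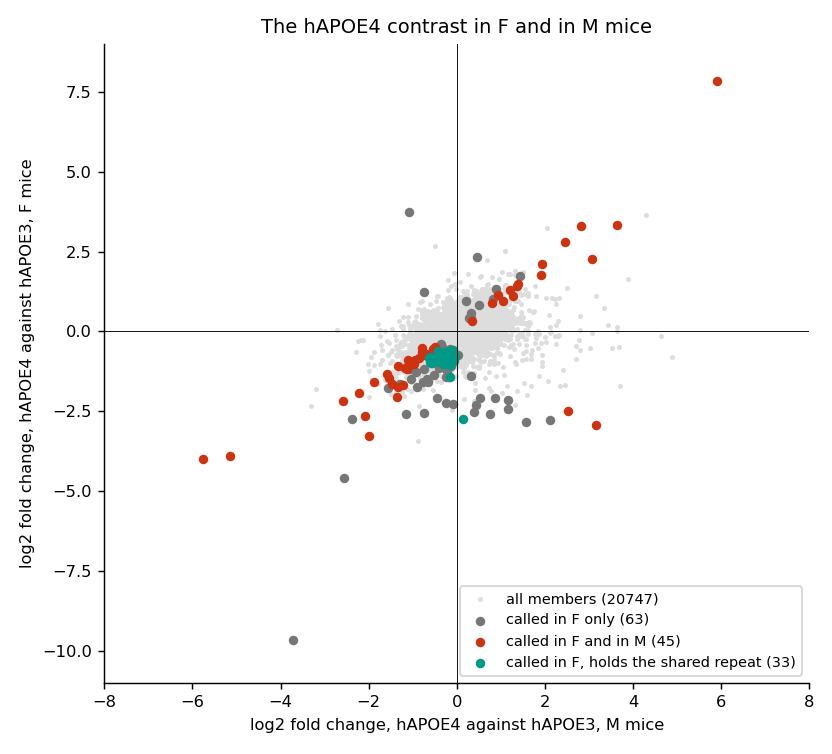
Log2 fold change of hAPOE4 against hAPOE3 in males (horizontal axis) and in females (vertical axis), 1 point per gene. Marked are the genes called in females alone, those called in both sexes (the 2 of opposite direction included) and those holding the shared repeat. The 43 genes called in the same direction in both sexes lie near the diagonal, and 125 of the 141 genes called in females had the same sign in males.

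The protein coding genes with the clearest differences moved alike in both sexes. Wdfy1, an endosomal adaptor of Toll-like receptor signalling on chromosome 1 (chr1:79702262-79776143, GRCm38), stood at 57.9, 56.0, 54.0, 50.4 and 55.3 CPM in the hAPOE3 females and at 24.8, 23.7, 24.2, 24.2 and 23.2 CPM in the hAPOE4 females. The lowest hAPOE3 female lay at more than 2 times the level of the highest hAPOE4 female. Wdfy1 fell by 1.19 ± 0.07 on the log2 scale (2.28-fold, adjusted p = 1.5e-09) and by 0.65 in the deposited normalized table, and the male change was -1.12 (adjusted p = 4.1e-09). Serpina3n, a secreted protease inhibitor that marks reactive astrocytes (chr12:104406729-104414329), was at 37.0, 43.3, 37.5, 44.1 and 51.3 CPM in hAPOE3 and at 145.6, 206, 206, 173 and 189.8 CPM in hAPOE4. Again the groups did not overlap. Serpina3n rose 4.32-fold (log2 2.11 ± 0.15, adjusted p = 3.7e-08), and its male change was 1.92 (adjusted p = 1.8e-07). Its neighbour in the gene family, Serpina3c, ranged from 0.0484 to 0.252 CPM in hAPOE3 and from 0.239 to 0.586 CPM in hAPOE4, with an adjusted p of 0.073.

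Other genes of this kind lay on several chromosomes, some of them within 2 Mb of another called gene (among them Crb1, Cd3d, Ermard, Mfn2 and Tedc1). Crb1, which sets apical polarity in epithelia and in retinal glia, was at 0.944, 0.753, 0.857, 0.490 and 0.925 CPM in hAPOE3 and at 2.39, 2.11, 2.51, 1.97 and 1.65 CPM in hAPOE4, and rose by 1.42 ± 0.23 (adjusted p = 0.0026). Cd3d, a subunit of the T cell receptor complex (chr9:44981786-44987339), was at 1.57, 2.26, 1.69, 1.69 and 2.92 CPM in hAPOE3 and at 0.592, 0.409, 0.321, 0.797 and 0.549 CPM in hAPOE4. It fell by 1.93 ± 0.28 (adjusted p = 0.0011), with a male change of -2.23 (adjusted p = 0.00024). Of the 14 T cell markers listed, 8 were measured and Cd3d was the 1 called, with a list median of -0.22 and a summed level of 5.55 to 8.66 CPM in hAPOE3 and 4.03 to 5.27 CPM in hAPOE4. The part of T cell number in the Cd3d difference was not tested.

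Erdr1, an erythroid differentiation regulator, showed a larger drop. It was at 58.1, 69.9, 54.3, 70.0 and 84.2 CPM in hAPOE3 and at 11.0, 4.76, 1.80, 1.59 and 3.29 CPM in hAPOE4. Erdr1 fell by 3.90 ± 0.41 (14.9-fold, adjusted p = 1.8e-05), and the male change was -5.16. The annotation used here gave it no position. Ermard, an endoplasmic reticulum membrane protein (chr17:15041208-15090044), fell by 0.49 ± 0.07 (adjusted p = 0.00089), with 43.6 to 48.6 CPM in hAPOE3 and 30.2 to 34.4 CPM in hAPOE4. The pseudogene Pisd-ps2, a copy of the phosphatidylserine decarboxylase gene on the same chromosome, fell by 1.06 ± 0.14 (adjusted p = 0.00024), from 12.5 to 15.8 CPM down to 6.21 to 8.16 CPM. The unnamed transcript UNKOWN_ENSMUST00000215334 on chromosome 9 fell by 1.75 ± 0.19 (adjusted p = 2e-05), and Gm13375 on chromosome 2 fell by 0.89 ± 0.13 (adjusted p = 0.0012), both also in males. Mfn2, the outer membrane GTPase that fuses mitochondria, was chosen after its values were seen. It was at 171, 180.4, 170.4, 163 and 146.3 CPM in hAPOE3 and at 202, 208, 211, 199 and 223 CPM in hAPOE4, a rise of 0.33 ± 0.08 (adjusted p = 0.048), and the call was lost when any 1 of the 10 females was left out (adjusted p up to 0.15). The male change of Mfn2 was 0.35 (adjusted p = 0.028). Tedc1, a partner of the epsilon and delta tubulins, rose by 0.90 ± 0.18 (adjusted p = 0.017), a call lost without 4 of the 10 females (adjusted p up to 0.065). The male change of Tedc1 was 0.81 (adjusted p = 0.038).

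**Figure D2:**
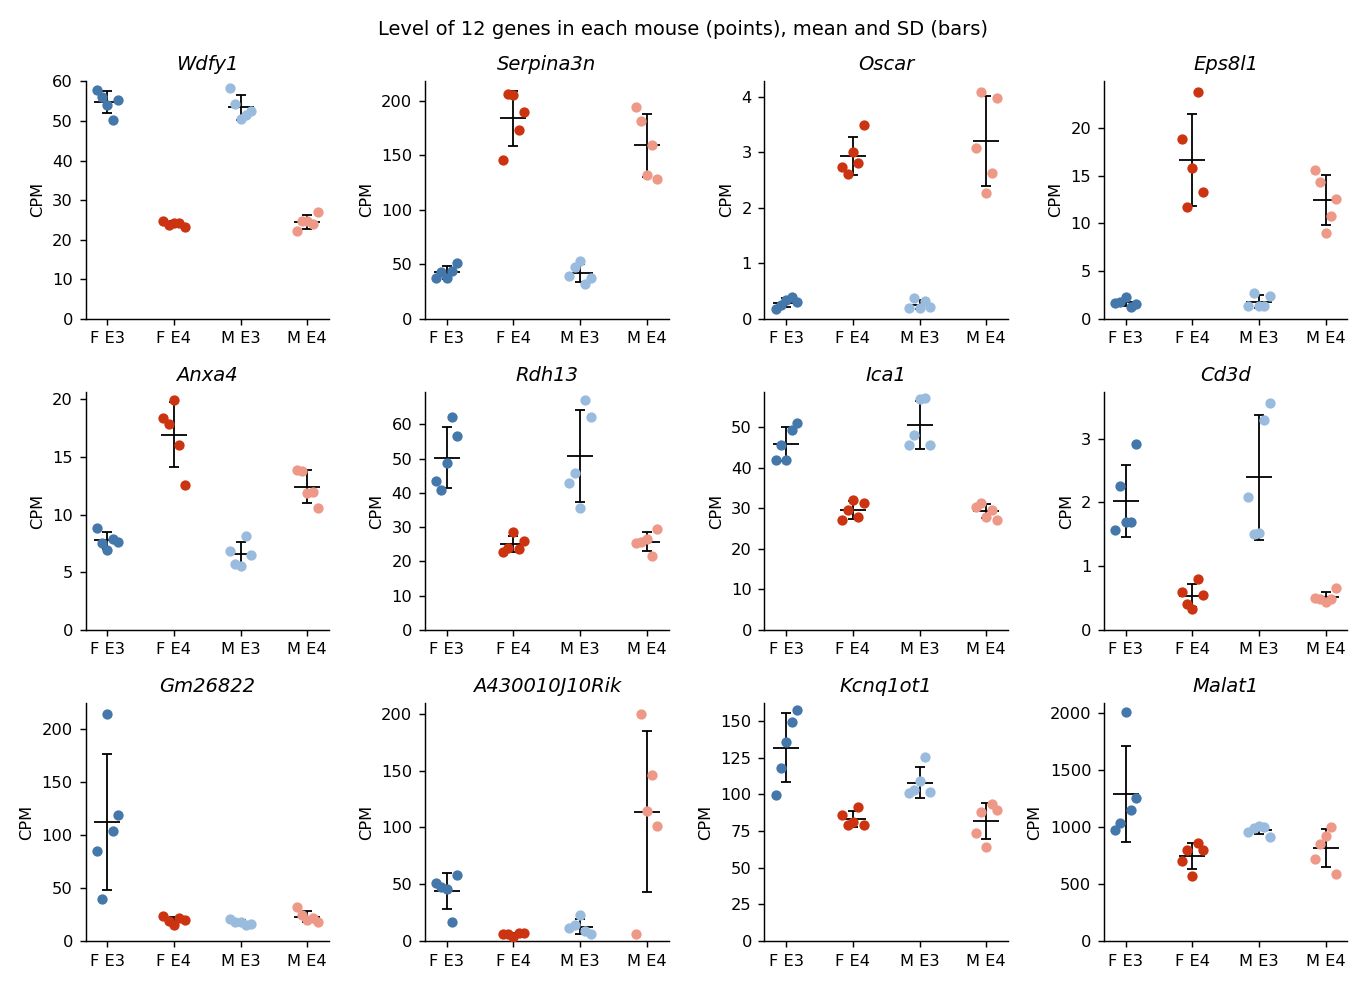
CPM of 12 genes named in the text in each mouse of the 4 groups (F.APOE3, F.APOE4, M.APOE3, M.APOE4), with points for mice and bars for the mean ± SD (n = 5). Wdfy1, Serpina3n, Oscar, Eps8l1, Anxa4, Rdh13, Ica1 and Cd3d are separated by genotype in both sexes, while Gm26822 is at 39.9 CPM or more in every F.APOE3 mouse and at or below 31.7 CPM in every mouse of the other groups.

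Chromosome 7, which carries Apoe itself (chr7:19696109-19699188), held a cluster of such genes. None of the 139 tested genes within 5 Mb of Apoe was called by edgeR, by DESeq2 or by limma, in females, with 7 lower and none higher at an unadjusted p below 0.05, while in males all 3 tools called 1 of them higher. Of the 422 genes at 5 to 20 Mb, 9 rose and 8 fell (4.03%), and 12 of these 17 were called in males as well. Farther away the share dropped to 0.741% of 270 genes at 20 to 50 Mb and 0.703% of 853 genes beyond that. The called genes lay mainly in a stretch at chr7:3424195-6466817, where 12 of 85 tested genes were called (7 higher and 5 lower, 9 of them also in males).

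Oscar, an activating receptor of osteoclasts and myeloid cells, was near the floor in that stretch in hAPOE3, at 0.169, 0.251, 0.343, 0.392 and 0.294 CPM, and at 2.73, 2.61, 3.0, 2.81 and 3.48 CPM in hAPOE4. It rose by 3.33 ± 0.24 (10.02-fold, adjusted p = 3.7e-08), and the male change was 3.64. Eps8l1, an actin regulator, was at 1.67, 1.78, 2.29, 1.25 and 1.54 CPM in hAPOE3 and at 18.8, 11.7, 15.8, 23.8 and 13.2 CPM in hAPOE4. Eps8l1 rose by 3.29 ± 0.25 (9.78-fold, adjusted p = 1.1e-07), and by 2.32 in the deposited normalized table. Gm15494, which overlaps Eps8l1 on the opposite strand, moved the other way, from 2.83, 2.01, 3.37, 2.60 and 2.48 CPM in hAPOE3 to 0.423, 0.388, 0.257, 0.539 and 0.501 CPM in hAPOE4. It fell by 2.65 ± 0.24 (adjusted p = 2.2e-06). The strand setting of the counting was not stated, so reads of the overlapping pair may be shared between them.

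Next to this pair, Rdh13, a mitochondrial retinol dehydrogenase, was at 43.3, 40.8, 48.8, 62.0 and 56.5 CPM in hAPOE3 and at 22.8, 24.01, 28.5, 23.5 and 26.1 CPM in hAPOE4, and fell by 1.01 ± 0.15 (adjusted p = 0.0013). Ptprh, a receptor tyrosine phosphatase, rose by 2.81 ± 0.40 (adjusted p = 0.00088), and Gm15510 rose by 1.78 ± 0.23 (adjusted p = 0.00038). Cacng6, a calcium channel gamma subunit, fell by 1.64 ± 0.29 (adjusted p = 0.0066), and the kinase gene Sbk3 fell by 1.13 ± 0.19 (adjusted p = 0.0033). All of these were called in males in the same direction. Lilra5, a leukocyte immunoglobulin-like receptor, was at 0.0286 to 0.123 CPM in hAPOE3 and 0.281 to 0.646 CPM in hAPOE4, a rise of 2.34 ± 0.43 (adjusted p = 0.01), while its male change was 0.45 (adjusted p = 0.74). The difference between the sexes was not called for Lilra5.

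The weakest calls of the stretch, close to the threshold, did not hold when 1 female was left out. Rps9, a protein of the small ribosomal subunit, was at 76.3, 70.4, 70.5, 122 and 129 CPM in hAPOE3 and at 161, 164.4, 172, 153.6 and 174.7 CPM in hAPOE4. It rose by 0.82 ± 0.19 (adjusted p = 0.048), and lost the call without any of 8 of the 10 females, with adjusted p up to 0.12. Of the 74 ribosomal protein genes tested it was the 1 called, and the median of that list was -0.05. The sums of that list were split within hAPOE3 as given above, with the hAPOE4 females between. Tmc4, a channel-like membrane protein, rose by 0.96 ± 0.22 (adjusted p = 0.047) and lost the call whichever female was left out, with adjusted p up to 0.12. Its change stayed at 0.89 to 1.03 in those fits, and it was called in males (1.05, adjusted p = 0.023). At chr7:30447534-30664994, on the other side of Apoe, Kirrel2, an immunoglobulin superfamily adhesion molecule, rose by 1.11 ± 0.16 (6.69 to 10.7 CPM against 15.2 to 21.8 CPM, adjusted p = 0.001), Arhgap33os rose by 2.26 ± 0.41 (adjusted p = 0.0088) and Haus5, a subunit of the augmin complex, fell by 1.03 ± 0.16 (adjusted p = 0.0021). All 3 were called in males too.

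**Figure D3:**
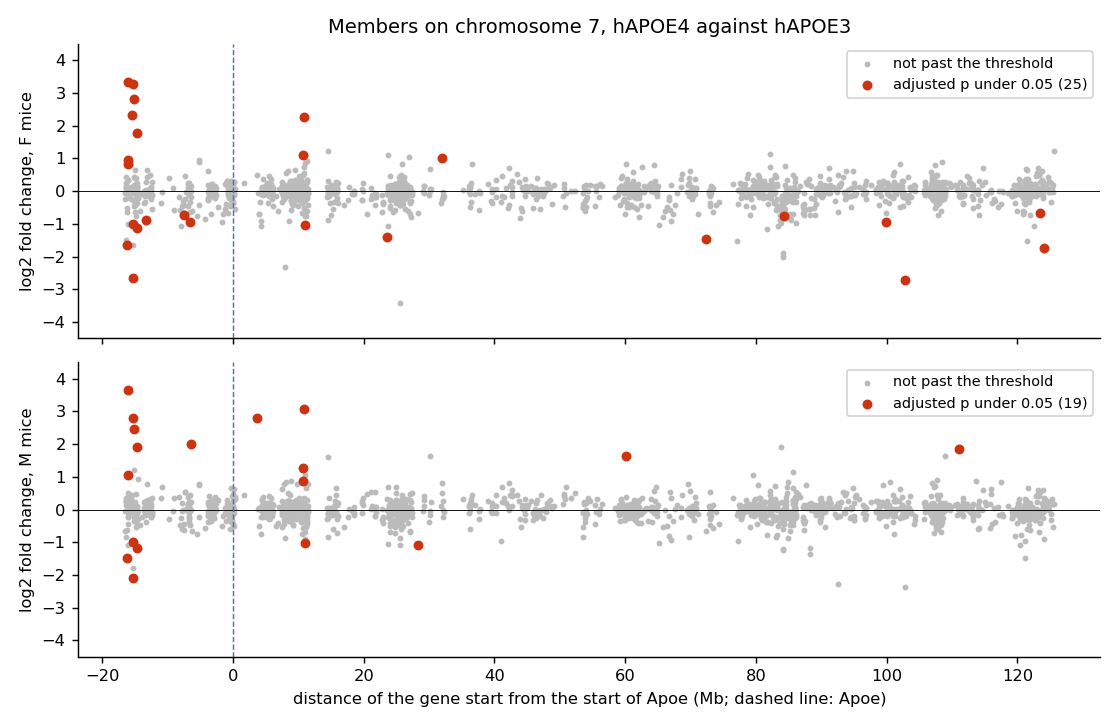
Log2 fold change of hAPOE4 against hAPOE3 for the tested genes of chromosome 7 against their distance from Apoe in Mb, in females and in males, with called genes marked (25 in females and 19 in males). The called genes gather at 5 to 20 Mb from Apoe, and none of the 139 genes within 5 Mb is called in females.

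Chromosome 6 held 3 smaller stretches. At chr6:8255936-8778488, 4 of 6 tested genes fell, 3 of them also in males. Ica1, a BAR domain protein of secretory vesicles, was at 41.9, 45.7, 41.9, 49.3 and 51.0 CPM in hAPOE3 and at 27.0, 29.7, 32.0, 27.8 and 31.3 CPM in hAPOE4, and fell by 0.64 ± 0.09 (adjusted p = 0.00049) and by 1.36 in the deposited normalized table. The other 3 were chosen after their values were seen. Umad1 fell by 0.56 ± 0.09 (adjusted p = 0.0028), the overlapping Gm45062 fell by 1.09 ± 0.21 (adjusted p = 0.012), and Rpa3, a subunit of replication protein A, fell by 0.55 ± 0.13 (adjusted p = 0.048). The Rpa3 call was lost without any of 9 of the 10 females, with adjusted p up to 0.18. At chr6:85706727-86793584, Anxa4, a calcium-dependent phospholipid binding annexin, was at 8.86, 7.55, 6.89, 7.87 and 7.59 CPM in hAPOE3 and at 18.4, 17.9, 19.9, 16.0 and 12.5 CPM in hAPOE4. Anxa4 rose by 1.13 ± 0.13 (adjusted p = 6.4e-05), and its male change was 0.92 (adjusted p = 0.00059). At chr6:120005998-120200339 both of the 2 tested genes, chosen after their values were seen, fell. Ninj2, an adhesion protein of the ninjurin family, was at 1.1795 to 2.23 CPM in hAPOE3 and at 0.516 to 0.716 CPM in hAPOE4, a fall of 1.45 ± 0.27 (adjusted p = 0.011) that was also called in males. The pseudogene Gm16199 fell by 0.69 ± 0.16 (adjusted p = 0.047), and its call was lost without any of 9 of the 10 females (adjusted p up to 0.13).

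Neighbouring N-acetyltransferase genes of the stretch at chr6:85706727-86793584, which also holds Anxa4, moved in opposite directions. Nat8f7 ranged from 0.533 to 0.904 CPM in hAPOE3 and from 1.73 to 3.34 CPM in hAPOE4, a rise of 1.74 ± 0.37 (adjusted p = 0.03) that was lost without any of 8 of the 10 females (adjusted p up to 0.097). Nat8f5, chosen after its values were seen, ranged from 1.20 to 1.84 CPM in hAPOE3 and from 0.0716 to 0.718 CPM in hAPOE4, a fall of 2.16 ± 0.40 (adjusted p = 0.011). Dnah6, an axonemal dynein heavy chain of motile cilia on the same chromosome, was at 13.3, 3.011, 4.80, 4.51 and 6.46 CPM in hAPOE3 and at 16.99, 24.2, 16.6, 19.6 and 12.4 CPM in hAPOE4. It rose by 1.48 ± 0.29 (adjusted p = 0.013), with 1 overlapping mouse, F.APOE3 replicate 1, and the call was lost without F.APOE3 replicate 3, F.APOE3 replicate 4 or F.APOE4 replicate 2 (adjusted p up to 0.056). The male change of Dnah6 was 1.40 (adjusted p = 0.021).

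A pseudogene present in 1 genotype and all but missing in the other was chosen after its values were seen. Gm5815 (chr17:58593614-58594840) had 1 count over all 5 hAPOE3 females and 398 counts over the 5 hAPOE4 females, at 1.90, 1.74, 1.91, 1.88 and 1.38 CPM in hAPOE4. The ratio scaled to library size was 362 with an exact 95% interval of 64.6 to 14300, which covers counting error only (adjusted p = 1.2e-08). Gm5815 could meet the rule for tested genes only through the 5 hAPOE4 females, so these values describe it and are no independent evidence. Its transcript is a near copy of Glcci1 on chromosome 6 (98.9% identity), and it also matches Gm45062 of the chromosome 6 stretch over 1182 bases at 98.9% identity. Reads of such copies can be split or misplaced by the counting, so that its level is uncertain. The 150 bases below, from base 439 of the Gm5815 transcript, are shown because they let the 2 copies be compared, and capitals in the second mark the 4 bases that differ. Both were read from the GRCm38 transcript sequences, Gm5815 on the + strand of chromosome 17 and Gm45062 at chr6:8259450-8597480 on the + strand.
Gm5815: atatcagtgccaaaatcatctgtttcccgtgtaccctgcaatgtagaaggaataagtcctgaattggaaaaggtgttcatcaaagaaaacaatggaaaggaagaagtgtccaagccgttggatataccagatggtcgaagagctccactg
Gm45062: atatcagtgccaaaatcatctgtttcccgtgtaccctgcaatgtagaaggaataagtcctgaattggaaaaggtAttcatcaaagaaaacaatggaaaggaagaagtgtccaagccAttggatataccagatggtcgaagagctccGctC

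Another gene had no count in any hAPOE4 female. Gm27998, a small transcript inside the long noncoding gene Miat (chr5:112215507-112215867), had 479 counts over the hAPOE3 females, at 2.30, 5.35, 1.03, 1.64 and 1.43 CPM, and none in hAPOE4. Against a floor of 3 counts over the group it was at least 175.6-fold lower (adjusted p = 0.0088), and its male change had an adjusted p of 0.21. Gm27998 could meet the rule for tested genes only through the 5 hAPOE3 females, so the female values are no independent evidence. Its 361 bases match Miat over their whole length at 100% identity, so reads can be placed on either gene and its level is uncertain. In males it ranged from 0 to 2.11 CPM in M.APOE3 and from 0 to 0.358 CPM in M.APOE4. It was chosen after its values were seen. Gm6472, a near copy of the ribosomal protein gene Rps7 (99.4% identity), was at 15.9, 25.9, 12.1, 31.0 and 25.5 CPM in hAPOE3 and at 1.44, 0, 2.21, 0 and 0.883 CPM in hAPOE4. It fell by 4.59 ± 0.95 (adjusted p = 0.023), a call lost without any of 6 of the 10 females (adjusted p up to 0.065). Among all 141 called genes, 43 had a near-identical copy elsewhere, and for these the count of reads per gene is uncertain. The span of 64 overlapped that of another gene, introns included and on either strand. Where such genes share exon sequence their counts are uncertain too. Neither number was set against its share over all genes tested.

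The second kind of faller shared a sequence. Gm43960, of chromosome 6 (chr6:10804828-10809847, + strand), was picked among the called processed pseudogenes for its number of matches. It matched 32 other fallers over at least 500 bases at 75% identity or more. Such stretches occur in the transcripts of 206 of the tested genes, over 503 to 5078 aligned bases (median 1209) at 75.2 to 93.2% identity (median 87.5%). What family of repeat it is was not tested. The windows below show 120 bases of it, from base 2054 of Gm43960, in 4 fallers of different kinds, so that the shared stretch can be seen. They are the processed pseudogene Gm43960, the imprinted antisense RNA Kcnq1ot1, an olfactory receptor gene (Olfr635, given as the reverse complement of its transcript) and a vomeronasal receptor gene (Vmn1r81). Capitals mark the bases that differ from Gm43960, which number 18 in Kcnq1ot1 (chr7:143203458-143296549, - strand), 16 in Olfr635 (chr7:103971152-103987540, + strand) and 21 in Vmn1r81 (chr7:12247241-12268269, - strand).
Gm43960: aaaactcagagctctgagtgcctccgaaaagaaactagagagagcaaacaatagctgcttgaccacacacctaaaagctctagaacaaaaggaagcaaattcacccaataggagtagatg
Kcnq1ot1: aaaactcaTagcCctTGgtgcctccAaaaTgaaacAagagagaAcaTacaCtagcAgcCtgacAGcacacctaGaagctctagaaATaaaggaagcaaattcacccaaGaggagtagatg
Olfr635: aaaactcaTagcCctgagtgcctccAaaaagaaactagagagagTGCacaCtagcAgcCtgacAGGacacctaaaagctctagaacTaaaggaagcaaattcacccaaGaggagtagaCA
Vmn1r81: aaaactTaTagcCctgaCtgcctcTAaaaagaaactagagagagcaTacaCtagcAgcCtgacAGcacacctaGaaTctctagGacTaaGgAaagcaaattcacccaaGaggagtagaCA

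Of the 206 genes with the repeat, 33 fell (16%) and none rose (1 was higher at an unadjusted p below 0.05, and DESeq2 called none higher), while 82 of the 20541 genes without it fell (0.399%). At an unadjusted p below 0.05, 75.2% of the 206 were lower and the values of the 2 groups did not overlap in 57. A fitted value below 0 was found for 197 of them (49.4% of all genes tested), with a median log2 fold change of -0.59, against 0.005 for the genes without the repeat. The match was found from the fallers themselves, and genes that share the sequence can share reads, so these counts describe the group and are not independent of each other. Both orientations were present. The repeat lay on the same strand as in Gm43960 in 143 genes (27 called, median -0.61) and on the other strand in 62 (5 called, median -0.53). Processed pseudogenes made 70 of the 206 (19 called) and protein coding genes 91 (7 called).

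Kcnq1ot1, which silences neighbouring genes on the paternal chromosome, was at 99.6, 118, 136, 149 and 157.4 CPM in hAPOE3 and at 85.9, 79.1, 80.9, 91.3 and 79.2 CPM in hAPOE4, and fell by 0.66 ± 0.12 (adjusted p = 0.0082). The vomeronasal receptor gene Vmn1r87 was at 4.74, 5.72, 7.15, 7.65 and 8.24 CPM in hAPOE3 and at 3.57, 3.62, 3.60, 3.80 and 3.006 CPM in hAPOE4, and fell by 0.93 ± 0.17 (adjusted p = 0.011). Olfr635, chosen after its values were seen, was at 7.21 to 12.2 CPM in hAPOE3 and 5.21 to 6.08 CPM in hAPOE4, a fall of 0.76 ± 0.14 (adjusted p = 0.011). Vmn1r81 fell by 0.73 ± 0.17 (adjusted p = 0.048), a call lost without any of 9 of the 10 females (adjusted p up to 0.15). In all 4 genes F.APOE3 replicate 1 was the lowest of its group. Summed over the 206 genes, the 5 hAPOE3 females had 2516, 2979, 3252, 2954 and 3204 CPM and the 5 hAPOE4 females 2498, 2342, 2389, 2675 and 2301 CPM, so that the sums of the groups overlapped.

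The repeat genes depended on which mice were included. Without F.APOE3 replicate 1, which had the lowest sum of its group, 74 of them were called in place of 33. Without both F.APOE3 replicates 3 and 5, a pair left out after the data were seen and the 2 with the highest sums, 2 were called. In males none of the 206 was called by edgeR and 3 were called by DESeq2, 56 were lower at an unadjusted p below 0.05 (4.66% of all genes), 179 had a lower fitted value and the median was -0.27. The difference between the sexes was called for 1 of them.

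**Figure D4:**
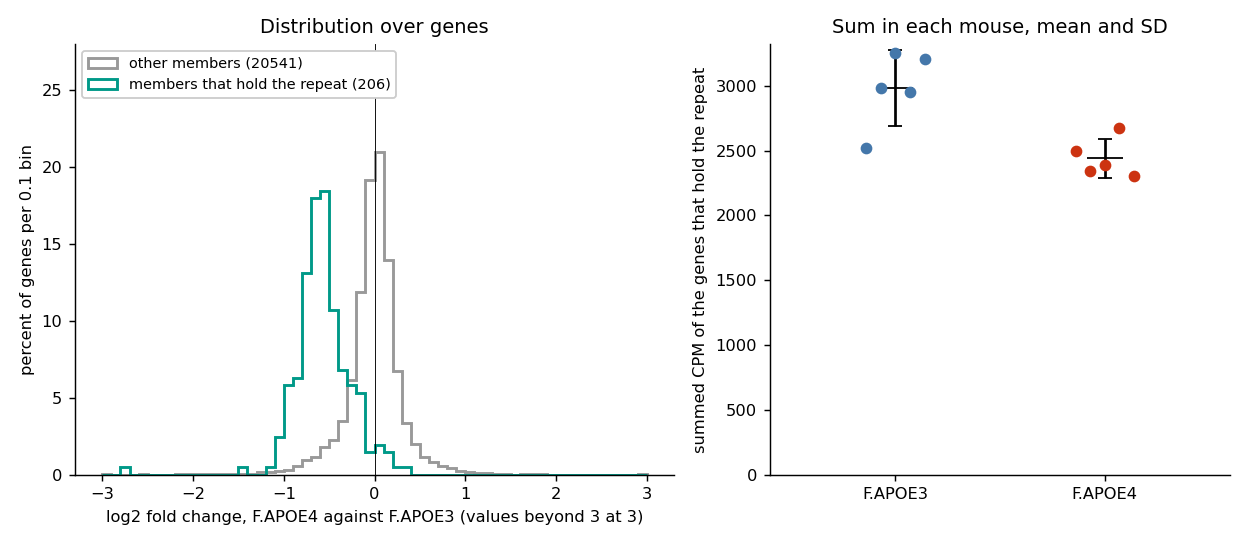
Left, distribution of the log2 fold change of hAPOE4 against hAPOE3 females over the 206 tested genes that hold the shared repeat and the 20541 that do not, as percent of genes per 0.1 bin. Right, summed CPM of the 206 genes in each female, with the mean and SD of each group (n = 5); the distribution of repeat genes is shifted to a median of -0.59, and the sums of the groups overlap because F.APOE3 replicate 1 is at 2516 CPM.

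The last kind of gene fell in hAPOE4 females with no such fall in males. Gm26822, a lincRNA of chromosome 16 (chr16:10827927-10833507), was at 85.0, 39.9, 215, 104 and 119 CPM in hAPOE3 females and at 23.2, 18.4, 15.5, 21.5 and 19.97 CPM in hAPOE4 females. It ranged from 15.4 to 20.4 CPM in M.APOE3 and from 17.98 to 31.7 CPM in M.APOE4. Gm26822 fell by 2.51 ± 0.29 in hAPOE4 females (adjusted p = 4.9e-05), its male change was 0.39 (adjusted p = 0.65), and the difference of the sexes was -2.90 ± 0.39 (adjusted p = 0.0023). Across all genes, the difference between the sexes was called for 35 (0.169%), 34 of them lower in the female than in the male comparison (0.164%) and 1 higher (0.00482%). Of the 141 genes called in females 13 were among these, 12 lower and 1 higher, and 11 of the 12 did not hold the repeat.

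Gm11225, a gene model, was at 8.67, 7.15, 14.9, 4.54 and 5.38 CPM in hAPOE3 females and at 2.13, 1.40, 1.54, 2.48 and 1.598 CPM in hAPOE4 females, a fall of 2.15 ± 0.33 (adjusted p = 0.0017) that differed from the male change by -3.30 (adjusted p = 0.0023). Gm4034 was at 3.20, 1.20, 6.03, 1.81 and 1.93 CPM against 0.317 to 0.581 CPM, and fell by 2.60 ± 0.39 (adjusted p = 0.0012). In both, every hAPOE3 female lay above every hAPOE4 female. Gm43960, the gene that represents the repeat, was among the 12, at 9.47, 14.6, 12.7, 8.31 and 36.1 CPM against 2.83, 2.37, 1.93, 2.55 and 2.41 CPM. It fell by 2.75 ± 0.39 (adjusted p = 0.00072), with a male change of 0.14 and a difference of the sexes of -2.89 (adjusted p = 0.017). Olfr729, an olfactory receptor gene without the repeat that was chosen after its values were seen, ranged from 3.51 to 7.07 CPM in hAPOE3 females and from 0.686 to 1.38 CPM in hAPOE4 females, a fall of 2.09 ± 0.33 (adjusted p = 0.0022). In males Olfr729 ranged from 0.999 to 3.19 CPM in M.APOE3 and from 1.21 to 4.51 CPM in M.APOE4.

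A pair of these genes was called in opposite directions in the 2 sexes. A430010J10Rik was at 51.3, 47.7, 45.9, 16.2 and 57.8 CPM in hAPOE3 females and at 6.06, 5.77, 3.79, 6.63 and 6.70 CPM in hAPOE4 females, a fall of 2.92 ± 0.56 (adjusted p = 0.012) that was lost in the deposited normalized table (-2.37, limma adjusted p = 0.065). In males it ranged from 6.42 to 23.2 CPM in M.APOE3 and from 6.28 to 199.6 CPM in M.APOE4, a rise of 3.17 ± 0.55 (adjusted p = 0.0047), although the ranges overlapped. The vomeronasal receptor gene Vmn1r13, chosen after its values were seen, fell by 2.50 ± 0.48 in females (adjusted p = 0.012) and rose by 2.52 ± 0.47 in males (adjusted p = 0.009). The differences between the sexes were -6.09 for A430010J10Rik and -5.02 for Vmn1r13, both with an adjusted p of 0.0023, and both female calls were lost without F.APOE4 replicate 3, at an adjusted p of 0.051. Gm43972 fell by 2.77 ± 0.55 (adjusted p = 0.016) and Gm19087 by 2.85 ± 0.57 (adjusted p = 0.017), with calls lost without 3 and 4 of the 10 females (adjusted p up to 0.064 and 0.068). In males Gm43972 ranged from 4.48 to 20.2 CPM in M.APOE3 and from 2.80 to 61.2 CPM in M.APOE4. Gm19087 ranged from 0.980 to 4.37 CPM in M.APOE3 and from 0.418 to 8.67 CPM in M.APOE4. M.APOE4 replicate 1 was the lowest of its group in A430010J10Rik (6.28 CPM, the others at 101.6 CPM or more) and Vmn1r13 (4.10 CPM, the others at 35.5 CPM or more). The same held for Gm43972 (the others at 35.0 CPM or more) and Gm19087 (the others at 6.23 CPM or more). In the male hAPOE4 libraries markers of oocytes ranged from 2.36 to 53.9 CPM (median 30.5 CPM), against 2.46 to 4.31 CPM in all females. With those markers as a covariate, the number of genes with a called difference between the sexes dropped from 35 to 1, which was Gm26822. The markers reached at most 3.87 CPM in M.APOE3, so high scores were found only in M.APOE4. The same fit also lost most of the 111 male calls. The part of oocyte RNA in the differences between the sexes was not tested.

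Further genes that fell in females and had no call in males were chosen after their values were seen. Klkb1, plasma kallikrein, was at 2.33 to 6.71 CPM against 0.364 to 0.773 CPM, and fell by 2.54 ± 0.51 (adjusted p = 0.017), a call lost without any of 5 of the 10 females (adjusted p up to 0.071). Its male change was not called. Gm3953 fell by 2.59 ± 0.47 (adjusted p = 0.0099), from 78.7 to 217 CPM down to 9.77 to 36.1 CPM. Gm19220 was at 249.9, 86.1, 627, 358 and 416 CPM in hAPOE3 and at 69.1, 66.2, 60.2, 66.1 and 96.5 CPM in hAPOE4, a fall of 2.28 ± 0.52 (adjusted p = 0.047) lost without any of 8 of the 10 females (adjusted p up to 0.14). In Gm26822 and Gm19220 the same mouse, F.APOE3 replicate 3, was the highest and F.APOE3 replicate 2 the lowest of the hAPOE3 females.

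Immunoglobulin genes, made by B cells and plasma cells, moved in both directions and were also chosen after their values were seen. Ighg2c, a heavy chain constant region, was at 0.557, 0.402, 1.20, 0.588 and 0.652 CPM in hAPOE3 and at 0.148, 0, 0.0429, 0 and 0 CPM in hAPOE4, and fell by 3.995 ± 0.70 (adjusted p = 0.0066), with a call in the same direction in males. Ighg2c lay in 1 stretch with Tedc1 (chr12:113156421-113288932), where 2 of 3 tested genes were called, both also in males. Igkc, the kappa light chain, was at 0.0968, 0.176, 0.143, 0.123 and 0.400 CPM in hAPOE3 and at 6.68, 5.51, 0.236, 0.305 and 0.143 CPM in hAPOE4. Its rise of 3.73 ± 0.85 (adjusted p = 0.044) rested on 2 mice and was lost without any of 7 of the 10 females (adjusted p up to 0.14) and in the deposited normalized table (2.25, limma adjusted p = 0.27).

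Among the 16 long noncoding RNAs listed and the mitochondrial transfer RNAs, the calls were all downward. Malat1, an abundant RNA of nuclear speckles, was at 976, 1033, 2014, 1153 and 1257 CPM in hAPOE3 and at 704, 802, 569, 863 and 796 CPM in hAPOE4. Malat1 fell by 0.79 ± 0.17 (adjusted p = 0.038), with a male change of -0.25 (adjusted p = 0.65), and the call was lost without any of 8 of the 10 females (changes of -0.87 to -0.56, adjusted p up to 0.12). It and Kcnq1ot1 were the 2 called of 16 long noncoding RNAs listed and tested, with a list median of -0.15. Of 16 mitochondrial transfer RNA genes, 2 fell, and the median was -0.41. They were mt-Te, the transfer RNA for glutamate (chrM:14071-14139, - strand), and mt-Ty, that for tyrosine (chrM:5260-5326, - strand), both chosen after their values were seen. Their whole sequences are given here because at 69 and 67 bases they are shorter than the sequencing reads.
mt-Te: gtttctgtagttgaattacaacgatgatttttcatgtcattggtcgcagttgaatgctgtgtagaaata
mt-Ty: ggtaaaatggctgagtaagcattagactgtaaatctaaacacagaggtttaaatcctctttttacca

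The level of mt-Te was 10.8, 17.3, 12.4, 12.99 and 14.2 CPM in hAPOE3 and 8.24, 8.21, 7.46, 7.17 and 6.39 CPM in hAPOE4, a fall of 0.85 ± 0.19 (adjusted p = 0.034). That of mt-Ty was 3.10, 5.82, 3.92, 3.33 and 3.43 CPM in hAPOE3 and 2.56, 2.05, 1.91, 2.46 and 2.24 CPM in hAPOE4, a fall of 0.80 ± 0.17 (adjusted p = 0.024). The values of the groups did not overlap in either, but the calls were lost without 9 and 5 of the 10 females (adjusted p up to 0.10 and 0.087). The 13 messenger RNAs that mitochondrial DNA encodes, for subunits of complexes I, III, IV and V, had no call by edgeR and 2 by DESeq2, while 11 of the 13 were lower at an unadjusted p below 0.05 and their median was -0.35 (-0.15 in males). The most so was mt-Atp8, at 829.8, 1242, 884, 757 and 816 CPM in hAPOE3 and 697, 582, 590.4, 722 and 447 CPM in hAPOE4 (-0.58 ± 0.15, adjusted p = 0.076). For mt-Nd6 the change was -0.54 ± 0.15 (adjusted p = 0.12). Summed, the mitochondrial genome took 7.13 to 9.88% of counts in hAPOE3 and 5.68 to 7.69% in hAPOE4. Without F.APOE4 replicate 5 the number of the 13 at an unadjusted p below 0.05 was 5, with a median of -0.31, and without F.APOE3 replicate 5 it was 4. For the nuclear genes of the same complexes the median was -0.06 over 37 genes of complex I and -0.08 over 36 genes of complexes III to V, with 23 and 29 of them below 0 and 1 and 2 lower at an unadjusted p below 0.05. These medians were -0.13 and -0.16 without F.APOE3 replicate 1 and 0.07 and 0.03 without F.APOE3 replicate 5, and in males they were -0.26 and -0.28. Complex III to V genes summed to 7261 and 7582 CPM in F.APOE3 replicates 4 and 5 and to 5025 to 5281 CPM in F.APOE3 replicates 1 to 3. The hAPOE4 females lay between, at 5582 to 6239 CPM.

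Some risers were called in females and not in males. Washc2, a subunit of the WASH complex that shapes actin on endosomes, was at 112, 122, 117, 99.8 and 99.3 CPM in hAPOE3 and at 134, 152, 163, 142 and 147.02 CPM in hAPOE4, and rose by 0.42 ± 0.08 (adjusted p = 0.011). Hapln4, a link protein of perineuronal nets, was at 68.8, 82.5, 76.1, 73.1 and 68.0 CPM against 94.7, 94.2, 96.9, 99.8 and 110.1 CPM. It rose by 0.43 ± 0.09 (adjusted p = 0.037), a call lost without any of 9 of the 10 females (adjusted p up to 0.12). Dglucy, the mitochondrial D-glutamate cyclase, rose by 0.59 ± 0.11 (adjusted p = 0.011), from 5.93 to 7.80 CPM up to 9.30 to 11.4 CPM, a call lost in the deposited normalized table (0.36, limma adjusted p = 0.55) and without both F.APOE3 replicates 3 and 5. Gm7336, a near copy of Gapdh (99.8% identity), rose by 1.02 ± 0.21 (adjusted p = 0.026), a call lost without any of 5 of the 10 females (adjusted p up to 0.10). In males Washc2 ranged from 108 to 128 CPM in M.APOE3 and from 138 to 162 CPM in M.APOE4, without overlap. Gm7336 ranged from 10.01 to 15.7 CPM in M.APOE3 and from 16.2 to 27.5 CPM in M.APOE4, again without overlap. The male ranges overlapped for Hapln4 (87.8 to 103 CPM in M.APOE3, 95.2 to 140 CPM in M.APOE4). They also overlapped for Dglucy (6.89 to 9.27 CPM in M.APOE3, 8.41 to 11.03 CPM in M.APOE4). None of these 4 showed a called difference between the sexes. Alx1, a homeobox gene chosen after its values were seen, was the 1 riser that did. It was at 0.0735 to 0.210 CPM in hAPOE3 and 0.262 to 0.429 CPM in hAPOE4, rose by 1.23 ± 0.27 (adjusted p = 0.037), and differed from the male change by 1.98 (adjusted p = 0.041). The female call was lost without any of 7 of the 10 females, with adjusted p up to 0.11.

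Pathway genes were described by lists, of which few members passed the adjusted test. Many of these counts moved when single mice were left out, and the larger moves are given beside them. Over all genes tested, 3.59% were higher and 6.56% lower at an unadjusted p below 0.05. The small counts of most lists were not tested against these shares. Several lists had all of their differences at that level in 1 direction. Of the 24 genes of the unfolded protein response, which restores protein folding in the endoplasmic reticulum, 8 were higher and none lower, with a median of 0.21 (0.17 in males), and 5 were higher without F.APOE4 replicate 2. The chaperone gene Hyou1 was at 107, 108, 96.9, 86.8 and 72.8 CPM in hAPOE3 and at 116, 130.2, 121, 114 and 119 CPM in hAPOE4 (0.35 ± 0.11, adjusted p = 0.17). The disulfide isomerase gene Pdia4 ranged from 43.8 to 58.1 CPM and from 50.8 to 82.5 CPM (0.40 ± 0.12, adjusted p = 0.18). The groups did not overlap for Hyou1 and did for Pdia4.

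The tricarboxylic acid cycle, fatty acid oxidation, glycolysis and lysosome lists lay slightly above 0 in females, unlike the lists of the respiratory complexes given above. Of the 29 genes of pyruvate oxidation and the tricarboxylic acid cycle, 5 were higher at an unadjusted p below 0.05 and none lower, with a median of 0.09 (-0.02 in males), and 3 were higher without F.APOE3 replicate 5. The succinate dehydrogenase gene Sdha was at 363, 356, 361, 346 and 373 CPM in hAPOE3 and at 414, 406, 477, 399 and 410.4 CPM in hAPOE4 (0.23 ± 0.07, adjusted p = 0.19). Pdk4, a kinase that inhibits pyruvate dehydrogenase, differed by 0.81 ± 0.26 (adjusted p = 0.19). Fatty acid oxidation had 3 of 29 higher, with a median of 0.09 (-0.02 in males), among them Hadha of the trifunctional protein (0.29 ± 0.10, adjusted p = 0.24). Glycolysis had 2 of 22 higher and a median of 0.11 (-0.04 in males). Lysosomal genes had 4 of 28 higher and a median of 0.10 (-0.05 in males), with 2 higher without F.APOE4 replicate 3. No member of these 4 lists was called by edgeR, and DESeq2 called 1, of the tricarboxylic acid cycle list.

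In the lower direction, 8 of 38 splicing genes had an unadjusted p below 0.05 and none was higher, with a median of -0.09 (-0.04 in males). Clk1, a kinase of splicing factors, was at 205, 219, 200.4, 210.4 and 258 CPM in hAPOE3 and at 183, 142, 172, 199 and 154.9 CPM in hAPOE4 (-0.36 ± 0.11, adjusted p = 0.15), and its relative Clk4 differed by -0.31 ± 0.09 (adjusted p = 0.16). The hAPOE3 mice all lay above the hAPOE4 mice for both. Circadian clock genes had 3 of 19 lower and none higher, with a median of -0.08 and 1 lower without F.APOE4 replicate 2, and the output factor Dbp differed by -0.39 ± 0.12 (adjusted p = 0.19).

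Genes of lipid handling, the known role of APOE, held no call. None of the 20 lipoprotein and APOE receptor genes had an unadjusted p below 0.05 (median 0.11), and cholesterol synthesis had 1 of 23 higher and 1 lower (median -0.002). Synaptic genes were likewise without a difference at that level, with 0 of 31 glutamate receptor genes (median 0.08), 0 of 20 genes of GABA signalling and 0 of 24 genes of the synaptic vesicle. Immediate early genes, which respond to neuronal activity, had 0 of 20 and a median of -0.22, with 3 lower and a median of -0.40 without F.APOE4 replicate 5. Neuronal, microglial, astrocyte, oligodendrocyte and myelin lists also had none. Reactive astrocyte genes had 3 of 20 higher, of which Serpina3n was the 1 called, and a median of 0.24, with 8 higher without F.APOE3 replicate 1 (median 0.38), 7 without F.APOE4 replicate 5 and 1 without F.APOE3 replicate 3.

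Of the lists of the brain's borders and vessels, those with genes past an unadjusted p below 0.05 had them all in the higher direction, and edgeR called none. Of 11 markers of border macrophages, 7 were higher at an unadjusted p below 0.05, all 11 had a fitted value above 0 (50.6% of all genes) and the median was 0.90 (0.23 in males). Siglec1, a sialic acid receptor of these macrophages, was at 2.20, 0.778, 0.943, 0.760 and 0.820 CPM in hAPOE3 and at 2.49, 2.46, 2.89, 2.39 and 0.954 CPM in hAPOE4 (1.02 ± 0.33, adjusted p = 0.20). In this gene F.APOE3 replicate 1 lay with the hAPOE4 mice and F.APOE4 replicate 5 with the hAPOE3 mice. Cbr2 differed by 1.56 ± 0.51 (adjusted p = 0.21). The summed level of the 11 markers was 49.0, 31.8, 32.9, 22.2 and 21.8 CPM in hAPOE3 and 70.6, 45.8, 62.5, 46.8 and 27.9 CPM in hAPOE4. Meningeal fibroblast markers had 4 of 10 higher at that level and a median of 0.78, and summed to 415, 157.6, 111, 181 and 193 CPM in hAPOE3 and 438, 439, 453, 271 and 104 CPM in hAPOE4. Choroid plexus markers had 0 of 13 at an unadjusted p below 0.05, but all 13 had a higher fitted value and the median was 0.89.

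Extracellular matrix genes had 8 of 28 higher (median 0.43), complement genes 5 of 18 (median 0.12), MHC class II genes 3 of 12 (median 0.10), pericyte markers 3 of 10 (median 0.42) and precursors of oligodendrocytes 2 of 9 (median 0.16), and none of these had a gene lower at that level or a call by edgeR, while DESeq2 called 1 complement gene and 1 pericyte gene higher. Among them the laminin gene Lamb2 differed by 0.51, the complement protease gene C1ra by 0.65 ± 0.18 (adjusted p = 0.12), H2-Ab1 by 1.34, the pericyte receptor gene Pdgfrb by 0.45 ± 0.13 (adjusted p = 0.14) and Gpr17 by 0.49 ± 0.14 (adjusted p = 0.14). Without F.APOE3 replicate 1, 2 border macrophage markers and 1 meningeal marker were called, and those at an unadjusted p below 0.05 numbered 9 of 11, 8 of 10 and, for the matrix genes, 16 of 28. The same counts came to 4 border macrophage markers without F.APOE4 replicate 1, to 1 meningeal marker without F.APOE3 replicate 2 and to 3 matrix genes without F.APOE3 replicate 4, and complement genes were at 1 without F.APOE3 replicate 3, MHC class II genes at 1 without F.APOE3 replicate 2 and pericyte markers at 1 without F.APOE3 replicate 5. With the choroid plexus score as a covariate, the choroid plexus median was -0.08, while border macrophages kept a median of 0.77 with 7 of 11 higher, meningeal markers 0.61 with 4 of 10 and matrix genes 0.30 with 9 of 28. The amount of meninges in each dissected hippocampus was not tested in this way. Red cell markers, 4 of 5 lower at an unadjusted p below 0.05 with a median of -1.88, had a median of 0.22 and none at that level without F.APOE3 replicate 1. Interferon response genes had 2 of 34 higher in females (median 0.21), a count that ran from 0 without F.APOE3 replicate 2 to 11 without F.APOE3 replicate 1 (median 0.36) and was 6 without F.APOE4 replicate 5, and 13 higher in males (median 0.42), where 4.27% of all genes were higher at that level.

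**Figure D5:**
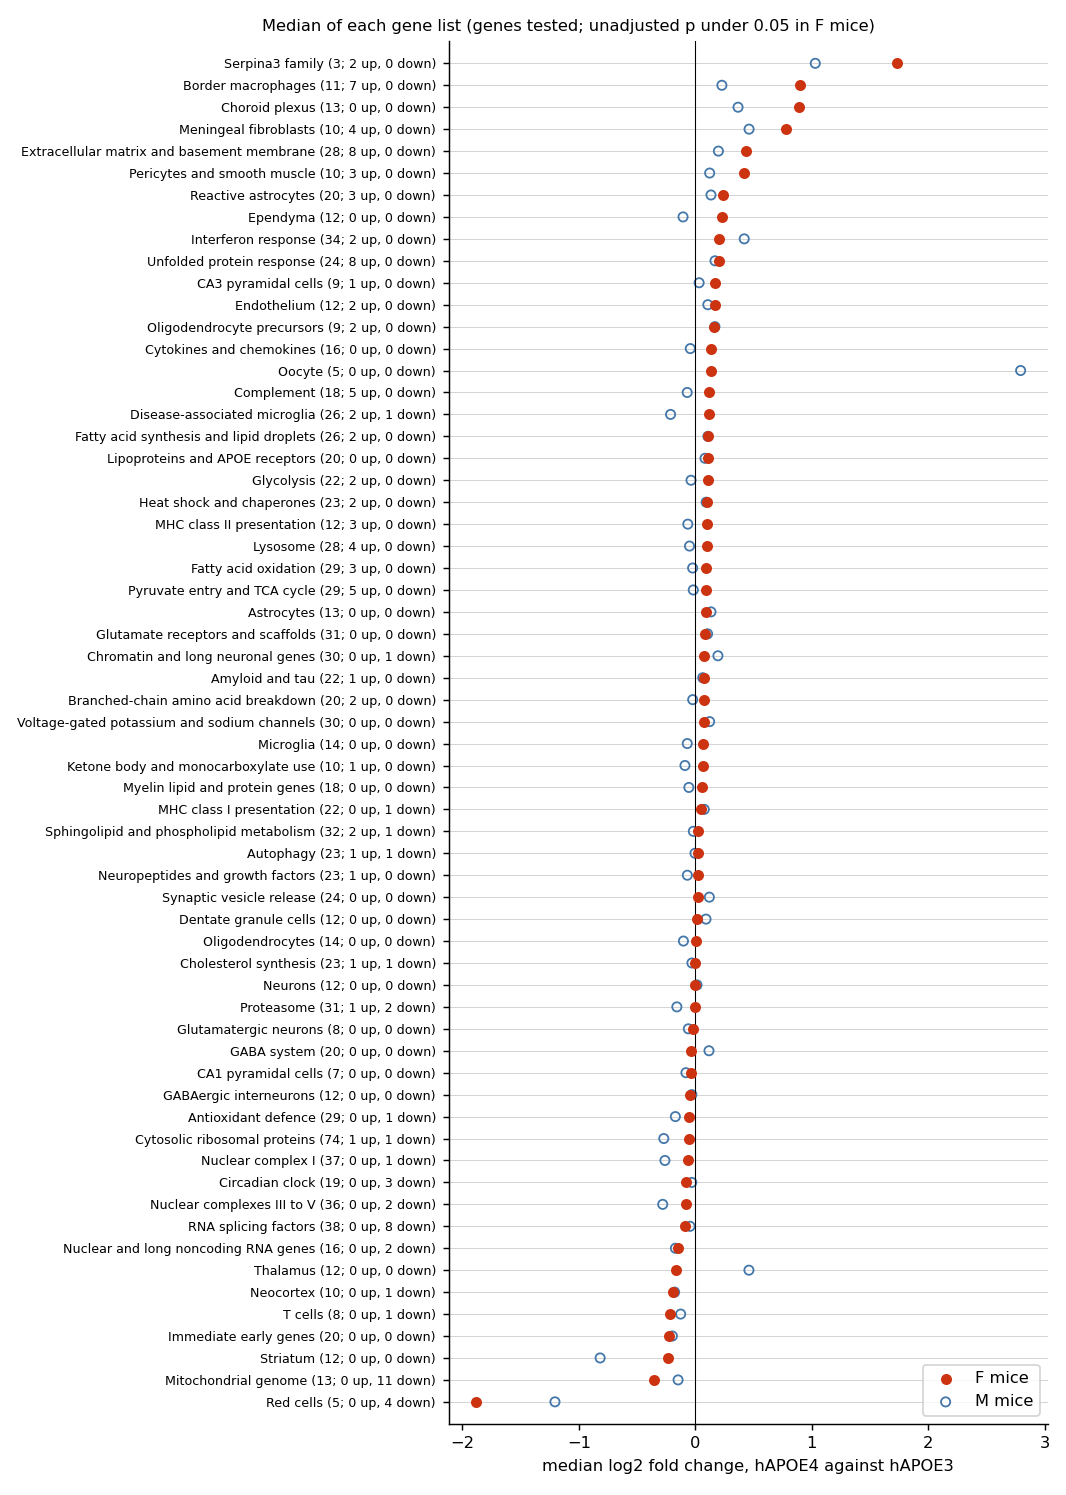
Median log2 fold change of hAPOE4 against hAPOE3 of each gene list in females (filled) and males (open), with the number of genes tested and of genes higher and lower at an unadjusted p below 0.05 in females. Border macrophage, choroid plexus and meningeal markers have medians of 0.90, 0.89 and 0.78 in females, red cell markers are at -1.88, and the mitochondrial genome is at -0.35.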

How the data were processed

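Polyadenylated hippocampal RNA of 20 mice (4 groups of 5) was sequenced as paired ends. Per the study's methods, the authors quantified reads with Salmon 0.91 on mouse transcripts, summed them to genes with tximport and normalized them with DESeq2. The deposited tables hold estimated counts per gene, rounded here to whole numbers. They also hold counts that the authors normalized with DESeq2 (a normalized signal), used here in 1 alternative. The log fold change differed between these inputs by over 0.5 in 8 called genes and in 1.28% of all genes tested. Wdfy1 was at -1.19 on the counts and -0.65 on the normalized signal, and Ica1 at -0.64 and -1.36. How the authors' normalization scaled single genes was not tested. The strand setting is not given in the sources used here. Columns of per-sample values left out numbered 0.

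Groups came from the sex and genotype labels. Counts were fitted with edgeR 4.0.16 (R 4.3.3, TMM, quasi-likelihood, 1 mean per group over all 20 mice, which share 1 estimate of the spread), and p was adjusted by Benjamini-Hochberg over all 20747 genes. A gene is called at an adjusted p below 0.05. SE is the log2 fold change divided by the root of the F statistic, and CPM is scaled by TMM. The same fit gave the male contrast and the difference of the 2 contrasts. Scripts were tested on simulated counts. With 35778879 to 47295254 counts a female library, the number of mice and not depth sets the precision of genes above a few CPM. Positions and types of genes come from GENCODE M21 (GRCm38), which matched 20587 of the 20747 genes. Shared sequence was found with BLAST+ 2.17.0.

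The genes tested and the lists were chosen with earlier results of these data known. Named genes are, among those called with a mean above 1 CPM, the 12 risers and 15 fallers of smallest p and the 5 of each direction that changed most without overlap, called genes within 20 Mb of Apoe, called list genes (up to 6 a list, otherwise the 2 of smallest p), Apoe and sex-linked controls. Single results for 2 genes are not reported here. Genes named outside this rule were chosen after their values were seen, as were all holders of the repeat, the genes with a called difference between the sexes and those with a near copy where the rule does not hold them. Alternatives listed with the design were DESeq2 1.42.0, other normalizations (RLE, upper quartile, without mitochondrial genes), other filters, the female mice alone, choroid plexus or oocyte scores as covariates and each female left out in turn. Alternatives chosen after seeing the data were limma 3.58.1 on log2(normalized count + 1), other limits for the repeat and both F.APOE3 replicates 3 and 5 left out.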

Additional observations from a re-analysis of the deposited data

Results flagged for a closer look

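In 28 of 350 groups of 5 females (8%), 1 mouse lay farther from the others than Dixon's 95% limit of 0.71 allows, where chance gives about 1 in 20. F.APOE3 replicate 1 was that mouse in 10 of them, the highest of its group in Anpep (4.87 CPM), C1ra (3.34 CPM), Cbr2 (1.36 CPM), Col1a2 (28.2 CPM), Elovl7 (30.9 CPM), Hba-a1 (52.0 CPM), Hbb-bt (18.9 CPM), Islr (19.7 CPM), Serping1 (13.8 CPM) and Siglec1 (2.20 CPM). Apart from Elovl7, a fatty acid elongase, these are markers of vessels, meninges, border macrophages and red cells together with complement genes.

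F.APOE4 replicate 5 was the lowest hAPOE4 female in Anpep (2.10 CPM), the Y-linked Kdm5d (1.81 CPM), Sbk3 (1.38 CPM), Siglec1 (0.954 CPM) and Vmn1r87 (3.006 CPM). In hAPOE3, replicate 2 was the highest in Nsf (997 CPM) and mt-Atp8 (1242 CPM), and replicate 3 in Malat1 (2014 CPM). Replicate 4 was the lowest in A430010J10Rik (16.2 CPM) and Chpt1 (58.4 CPM). Replicate 5 was the highest in Gm19087 (6.62 CPM), Gm43960 (36.1 CPM), Gpr6 (2.69 CPM) and Ndufa9 (105 CPM). In hAPOE4, replicate 1 was the highest in Cartpt (8.66 CPM), replicate 3 the highest in Sdha (477 CPM) and the lowest in Zp2 (0.171 CPM), and replicate 4 the highest in Gpr34 (20.8 CPM).

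The change of 13 genes called in females differed from that in males by the test of the difference itself (edgeR, log2 female minus male change). It was -6.09 for A430010J10Rik, -5.02 for Vmn1r13, -3.30 for Gm11225 and -2.90 for Gm26822 (all adjusted p = 0.0023). It was -4.90 for Gm43972 and -2.95 for Olfr729 (both adjusted p = 0.0060), -3.36 for Gm4034 (adjusted p = 0.0068), -2.73 for Gm12792 (adjusted p = 0.0084) and -3.59 for UNKOWN_ENSMUST00000219287 (adjusted p = 0.010). For Gm19087 it was -4.41 (adjusted p = 0.012), for Gm15039 -2.61 and for Gm43960 -2.89 (both adjusted p = 0.017), and for Alx1 it was 1.98 (adjusted p = 0.041).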

How the results depend on the processing

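Of the 141 genes called in females, 39 passed in all 21 settings, 63 kept the call with every female left out in turn, and no called gene changed direction. DESeq2 called 340 genes (70 higher and 270 lower), 138 of them shared with edgeR, among them 72 repeat genes, and it called 204 genes in males, 74 in both sexes and 53 differences between the sexes. With no filter on low counts 19 repeat genes and 221 genes in males were called. With the oocyte score as a covariate 10 genes were called in males, 10 in both sexes and 1 difference between the sexes. Limma on the normalized counts called 10 such differences. Without both F.APOE3 replicates 3 and 5, 40 genes were called (10 higher and 30 lower), 39 of them among the 141, with 2 repeat genes, 27 in both sexes and 11 differences between the sexes. A repeat match of 2000 bases at 80% left 20 called repeat genes. With each female left out in turn, 71 to 260 genes were called (15 to 51 higher and 56 to 209 lower), with 12 to 74 repeat genes, 35 to 43 in both sexes and 25 to 30 differences between the sexes. The highest of these counts came without F.APOE3 replicate 1, with 131 of the 141 genes among the 260. Genes that were not called and changed sign included Lrp1 at -0.0586 in limma, and Gpr6 at 0.00914 and Stmn2 at 0.00983 without both mice. With 1 female left out in turn, Gpr6 ranged from -0.632 to 0.0115, Opalin from -0.264 to 0.0309 and Stmn2 from -0.0922 to 0.0117. Fewer mice entered the fits that left mice out, and for the other settings the cause was not tested. No paired analysis was possible because the titles give the groups no shared replicate numbers. Of the called genes, 36 averaged below 1 CPM, where depth limits the value.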

Other observations

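Lists not described above held few differences in females. Over all genes tested, 3.59% were higher and 6.56% lower at an unadjusted p below 0.05. Markers of the hippocampal fields had no gene at an unadjusted p below 0.05 in 7 of CA1 pyramidal cells (median -0.04) or 12 of dentate granule cells (median 0.02). Of 9 markers of CA3 pyramidal cells all lay above 0 (median 0.17), 1 was higher at that level and 1 was called by DESeq2, and their summed level was 491 to 580.2 CPM in hAPOE3 and 583 to 626 CPM in hAPOE4, without overlap. Glutamatergic neurons (8 genes, median -0.02) and GABAergic interneurons (12 genes, median -0.04) had none. Markers of tissue next to the hippocampus, the striatum (12 genes, median -0.24) and the thalamus (12 genes, median -0.16), had none, and those of the neocortex had 1 of 10 lower (median -0.19). Ependymal markers had 0 of 12 with a median of 0.23, and endothelial markers 2 of 12 higher with a median of 0.17.

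Disease-associated microglial genes had 2 of 26 higher and 1 lower (median 0.12), cytokines and chemokines 0 of 16 (median 0.14), and genes of amyloid and tau 1 of 22 higher (median 0.08). Fatty acid synthesis and lipid droplet genes had 2 of 26 higher (median 0.11), sphingolipid and phospholipid genes 2 of 32 higher and 1 lower (median 0.03), branched-chain amino acid breakdown 2 of 20 higher (median 0.08) and ketone body use 1 of 10 higher (median 0.07). Heat shock genes had 2 of 23 higher (median 0.10), the proteasome 1 of 31 higher and 2 lower (median -0.01), autophagy 1 of 23 in each direction (median 0.03) and antioxidant defence 1 of 29 lower (median -0.05). Chromatin and long neuronal genes had 1 of 30 lower (median 0.08), voltage-gated channels 0 of 30 (median 0.08), neuropeptides and growth factors 1 of 23 higher (median 0.02) and MHC class I presentation 1 of 22 lower (median 0.05). No gene of the lists of these 2 paragraphs was called by edgeR, and DESeq2 called 1 autophagy gene lower. The autophagy kinase gene Ulk2 was the nearest to a call, at 118, 118, 120.04, 84.7 and 88.4 CPM in hAPOE3 and at 69.9, 68.6, 71.1, 79.99 and 74.9 CPM in hAPOE4 (-0.54 ± 0.13, adjusted p = 0.051).

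Genes of 1 family on chromosome 12 had the highest list median. Of the 3 Serpina3 genes measured 2 were higher at an unadjusted p below 0.05, Serpina3n called by edgeR and Serpina3c called by DESeq2 and limma as well, with a median of 1.73 (1.03 in males).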
